A study of Homo sapiens with 4 samples.

Results

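The unfolded protein response (UPR) and the amino acid response are stress programs that act largely through transcription, and 44 of their genes were followed in HGC-27, a human gastric cancer cell line. The genes were chosen by symbol, with earlier results of these data known, and fell into 2 sets that were read separately. A set of 30 ATF4-type genes held the transcription factor ATF4, related regulators and known target genes for amino acid synthesis, transport and charging of tRNA. A set of 14 endoplasmic reticulum (ER) genes held ER stress sensors, XBP1 and ER chaperones. All 44 were among the 25559 gene symbols of the count tables, and all 44 passed the filter on low counts. The RNA-seq compared 2 libraries of wildtype HGC-27 cells (control) with 2 libraries of RUNX3 knock-out (KO) cells, which carry a Cas9-made RUNX3 mutation and went through single-cell cloning. The number of clones and whether the replicates were separate cultures are not given in the sources used here. An effect of RUNX3 loss and a property of the clone therefore cannot be told apart, and p-values measure only the spread between these libraries, which may be technical.

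When amino acids run short or unfolded proteins build up in the ER, kinases phosphorylate the translation factor eIF2, general translation drops, and translation of ATF4 goes up. ATF4 then switches on genes that make, import and load amino acids onto tRNA. The ER carries 3 sensors of its own, PERK (encoded by EIF2AK3), IRE1 (ERN1) and ATF6. IRE1 splices the XBP1 mRNA, and spliced XBP1 and cleaved ATF6 raise chaperones and degradation factors. Much of this control is on translation, splicing and protein cleavage, which gene-level counts do not show.

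The libraries held between 11731401 and 12110876 counts on genes. RUNX3 itself had 351 and 308 counts in control cells against 225 and 185 in RUNX3 KO cells. Its RNA was lower and still counted (log2 fold change -0.70, SE 0.0961, edgeR adjusted p = 1.43e-09). The paper reports that an immunoblot found no RUNX3 protein in its knock-out HGC-27 cells. Protein was not measured here. Replicate libraries of a group differed by a chi-square of 1.22 (control) and 1.18 (RUNX3 KO) per degree of freedom, and libraries of different groups by 16.9 to 17.4. Of 6 gastric epithelial markers, 5 (TFF1, TFF2, MUC5AC, GKN1 and PGC) had no count in any library. The 5 epithelial markers summed to 35 and 33 counts in control cells and 104 and 127 in RUNX3 KO cells, with KRT19 at 0 throughout. Leukocyte markers summed to 15 to 29 counts and endothelial markers to 1 to 4, and CD3E, PECAM1, CDH5 and KDR were at 0. Their part in the results was not tested. In bulk RNA, fewer cells of a kind and less RNA per cell cannot be told apart.

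Both sets leaned to lower RNA in RUNX3 KO cells, by small amounts. By the quasi-likelihood test of edgeR, with Benjamini-Hochberg adjusted p-values, 24 of the 44 genes were lower, 8 were higher and 12 did not pass an adjusted p of 0.05. The called share was 72.7%, where 48.9% of all 12967 tested genes were called. The lower genes made up 54.5% and the higher genes 18.2%, against 24.4% lower and 24.5% higher among all tested genes. Every member was well counted, between 101 and 15509 counts in a library. Among genes with a mean of at least 100 counts 25.1% were lower and 28.6% higher. That floor does not match the depth of the members, many of which lay far above it. Deeper counts give a smaller SE (0.0222 for HSPA5, 0.132 for ERN1), so smaller changes are called. A share among genes of matching depth was not computed. The median log2 fold change of the members was -0.13, and that of all tested genes was -0.0021. Both RUNX3 KO libraries were below both control libraries for 30 members, above them for 10 and overlapping for 4, where 36.4% of all tested genes lay below and 36.3% above.

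Most of these changes were slight. Of the 32 called members, 14 changed by less than 0.2 on the log2 scale. A change of at least 1.5-fold was called for 3 members, XBP1 and SLC1A4 among the lower and ATF5 among the higher, while 12.8% of all tested genes passed that limit. When a 2-fold change and an unadjusted p of at most 0.05 were required instead, SLC1A4 alone passed among the members, as did 6.12% of all tested genes.

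Among the ATF4-type genes 16 were lower (53.3%), 8 higher (26.7%, near the share of all tested genes) and 6 not called, with log2 fold changes from -1.07 to 0.76 and a median of -0.13. Among the ER genes 8 were lower (57.1%), none was higher and 6 were not called, from -0.75 to 0.01 with a median of -0.15. No ER gene was higher at an unadjusted p of 0.05 by edgeR either, where 10 were lower. That criterion was not counted over all genes. DESeq2 called 0 ER genes higher and 7 lower, and among all 12967 tested genes 1829 higher and 1863 lower. Whether the sets differed from each other was not tested. With either RUNX3 KO library left out, fewer members of both sets were called lower, and fewer of all tested genes were called lower too.

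**Figure D1:**
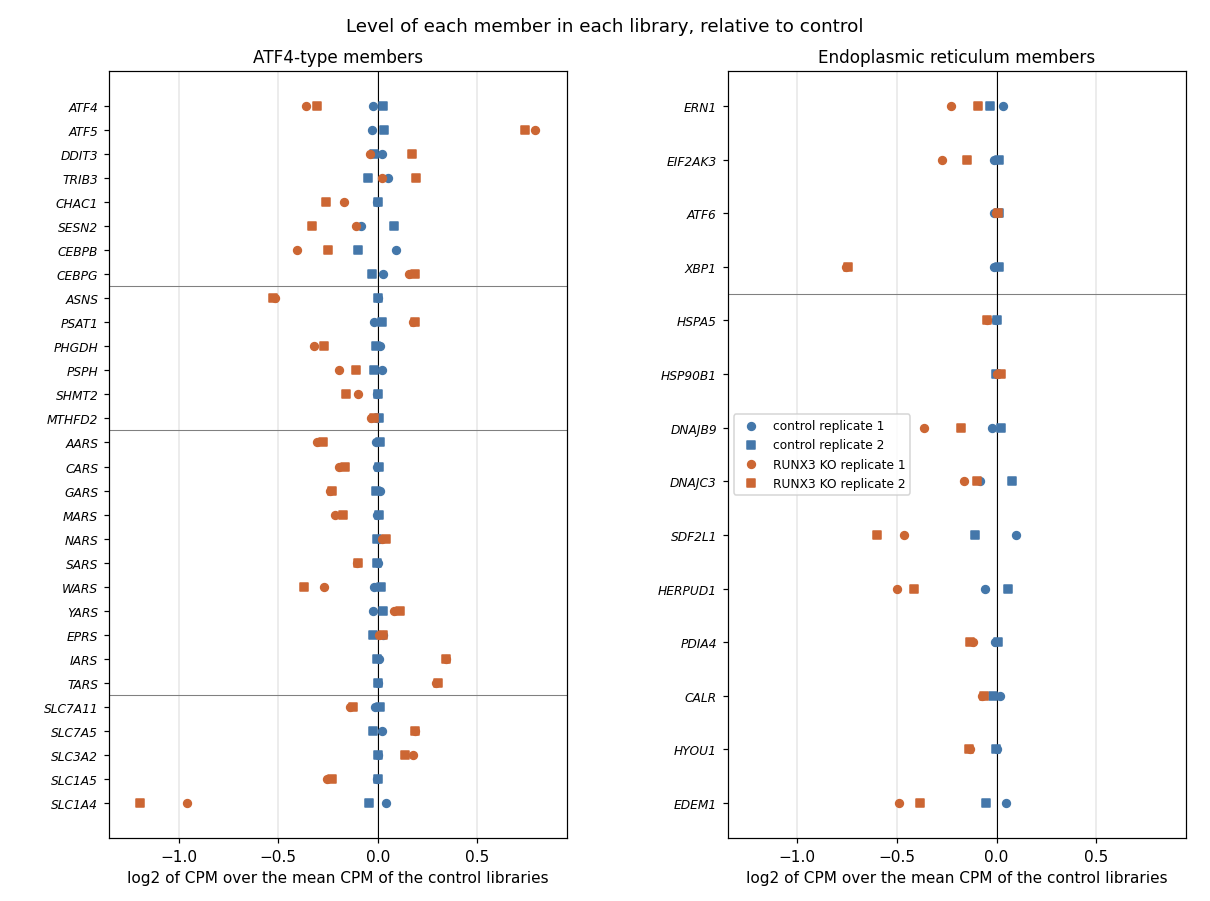
Level of each of the 44 genes in each library as log2 of CPM (counts scaled to library size) over the mean of the control libraries, with control in blue, RUNX3 KO in orange, circles for replicate 1 and squares for replicate 2. In 30 genes both orange points lie left of both blue points, in 10 they lie right, and SLC1A4 (to the left) and ATF5 (to the right) stand farthest out.

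Both programs act through short promoter elements, so promoter sequences were searched for them on both strands. TGATGNAA is the shared core of elements bound by ATF4 with C/EBP factors, and the ER stress element consists of CCAAT, 9 bases of any kind and CCACG. RefSeq windows on GRCh38.p14, from 250 bases before to 50 bases after the transcription start, were matched for 26 ATF4-type and 14 ER genes. PSPH, SHMT2, YARS and SLC7A11 had no window. TGATGNAA was found in 9 ATF4-type windows (34.6%), 1 ER window (7.14%) and 3.62% of all 35116 windows. All windows include those of genes that were not tested here, and shares among tested genes were not computed. The ER stress element was found in 4 ER windows (28.6%), those of XBP1, HSPA5, HSP90B1 and CALR, in 0 of the 26 ATF4-type windows and in 0.0769% of all windows. TGACGTGG, an element bound by XBP1, was in the HYOU1 window only among members and in 0.729% of all windows. TGTGGT, a core that RUNX proteins bind, was in the AARS and WARS windows (7.69% of the ATF4-type windows), in 0 ER windows and in 13.1% of all windows. Candidates for printing were the called ATF4-type genes with TGATGNAA and the called ER genes with the ER stress element. The 4 of these with the largest changes are printed, each window holding 1 motif match and so no overlap between motifs, and each shown to 30 bases after the start and 5′ to 3′ on the gene's strand. Capitals mark the ER stress element in XBP1 and TGATGNAA in the others, which in IARS and TARS lies on the opposite strand and so reads as its reverse complement.
XBP1 (chr22:28800540-28800819, minus strand): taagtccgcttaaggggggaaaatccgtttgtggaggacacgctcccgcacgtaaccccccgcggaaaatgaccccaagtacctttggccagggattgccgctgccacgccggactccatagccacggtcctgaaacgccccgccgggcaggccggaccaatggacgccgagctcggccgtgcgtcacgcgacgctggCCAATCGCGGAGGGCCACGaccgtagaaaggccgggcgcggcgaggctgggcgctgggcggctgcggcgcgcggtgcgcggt
ASNS (chr7:97872379-97872658, minus strand): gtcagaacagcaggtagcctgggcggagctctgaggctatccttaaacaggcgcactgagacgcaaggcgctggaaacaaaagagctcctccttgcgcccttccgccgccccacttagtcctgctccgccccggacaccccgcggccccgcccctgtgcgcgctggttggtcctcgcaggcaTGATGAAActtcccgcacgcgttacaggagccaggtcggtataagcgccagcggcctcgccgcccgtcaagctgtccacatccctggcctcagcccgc
IARS (chr9:92293668-92293947, minus strand): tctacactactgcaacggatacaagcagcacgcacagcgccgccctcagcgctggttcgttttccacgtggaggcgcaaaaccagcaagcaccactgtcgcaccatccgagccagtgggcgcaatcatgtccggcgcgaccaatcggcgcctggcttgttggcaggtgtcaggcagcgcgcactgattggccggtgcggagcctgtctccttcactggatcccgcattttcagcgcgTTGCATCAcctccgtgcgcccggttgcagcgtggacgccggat
TARS (chr5:33440715-33440994, plus strand): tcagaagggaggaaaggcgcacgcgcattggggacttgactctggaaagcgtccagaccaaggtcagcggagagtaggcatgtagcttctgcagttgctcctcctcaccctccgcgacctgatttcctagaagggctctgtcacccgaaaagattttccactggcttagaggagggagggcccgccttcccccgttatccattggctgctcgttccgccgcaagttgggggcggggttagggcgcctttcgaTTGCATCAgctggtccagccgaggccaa
The match began 52 bases before the start in XBP1, 68 bases before it in ASNS and 13 bases before it in IARS, and at base 3 of the transcript in TARS. The 3 genes printed with TGATGNAA moved in different directions, ASNS being lower and IARS and TARS higher in RUNX3 KO cells, and XBP1 was lower. A match is a description of the letters, and the absence of one draws nothing about a factor.

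Among the 8 regulators and stress effectors, 2 were higher, 3 were lower and 3 were not called, with a median log2 fold change of -0.07. ATF4, the central factor of the response, lies on chromosome 22 from 39915700 to 39918688 on GRCh37. It had 405 and 419 CPM in the control libraries and 321 and 334 CPM in the RUNX3 KO libraries, so both RUNX3 KO libraries were below both controls. Its log2 fold change was -0.33 (SE 0.0287, edgeR adjusted p = 6.71e-18). Its level fell by 20.6%, though 38 of its 40 nearest tested genes were lower too, and with their median subtracted its value turned to 0.21. ATF5, a related factor that is also translated under stress, went the other way. Its 37.5 and 39.1 CPM in control cells stood against 66.3 and 63.9 CPM in RUNX3 KO cells. This 1.70-fold rise was the largest among the members (log2 fold change 0.76, SE 0.0629, edgeR adjusted p = 6.58e-19). ATF5 shares 19.5% of its exon length with genes on the opposite strand, and how strand was handled in counting is not given in the sources used here.

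CEBPG and CEBPB, C/EBP factors that pair with ATF4 at its elements, were called in opposite directions. CEBPG rose, from 194 and 187 CPM in control to 212 and 216 CPM in RUNX3 KO libraries (log2 fold change 0.17, edgeR adjusted p = 1.76e-05), and was at 0.08 with its neighbours' median subtracted. CEBPB fell, from 22.3 and 19.5 CPM to 15.8 and 17.6 CPM (log2 fold change -0.33, edgeR adjusted p = 0.00519). SESN2, which restrains the growth kinase mTORC1, was barely past the threshold at a log2 fold change of -0.22 (edgeR adjusted p = 0.0498). Its value ran from -0.33 without RUNX3 KO replicate 1 to -0.11 without RUNX3 KO replicate 2, and its call was lost in 7 of 11 refits, without either RUNX3 KO library or control replicate 2 among them. The CEBPB call was lost without either RUNX3 KO library or control replicate 1 (edgeR adjusted p from 0.114 to 0.229). DESeq2 called neither CEBPB (adjusted p = 0.146) nor SESN2 (adjusted p = 0.344), and the CEBPG call was lost without either RUNX3 KO library (adjusted p = 0.0508 and 0.0767).

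The other 3 genes of this group, all known to rise when the response is switched on, did not pass. DDIT3, which encodes the apoptosis-linked factor CHOP, had 153 and 149 counts in control and 147 and 173 in RUNX3 KO libraries, with overlapping groups (log2 fold change 0.07, SE 0.119, edgeR adjusted p = 0.659). DDIT3 shares 39.6% of its exon length with other genes, MARS on the opposite strand among them. TRIB3, a pseudokinase that restrains ATF4, overlapped between the groups at a log2 fold change of 0.11 (edgeR adjusted p = 0.171). With 1 library left out TRIB3 ranged from 0.02 to 0.19. CHAC1, an enzyme that degrades glutathione, was at 255 and 256 against 227 and 217 counts (log2 fold change -0.22, edgeR adjusted p = 0.0564), and it was called lower with library size alone as the scaling (edgeR adjusted p = 0.0362). Per kilobase of exon, ATF4 was the most abundant regulator in control cells at 158 CPM per kb, against 46.9 for CEBPG and 6.72 for SESN2, the lowest.

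The 6 enzymes of amino acid synthesis and one-carbon metabolism had a median log2 fold change of -0.14, with 4 lower, 1 higher and 1 not called. ASNS, asparagine synthetase and a classical ATF4 target, lies on chromosome 7 from 97480989 to 97501854 on GRCh37. It had 412 and 411 CPM in control libraries and 288 and 286 CPM in RUNX3 KO libraries. The groups were far apart next to the spread within them, and the log2 fold change was -0.52 (SE 0.0287, edgeR adjusted p = 1.88e-29). ASNS RNA fell by 30.4%.

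The serine synthesis pathway, whose 3 enzymes are all members, had enzymes called in both directions. PHGDH, its first enzyme, fell from 583 and 576 CPM to 464 and 481 CPM (log2 fold change -0.30, edgeR adjusted p = 1.34e-17). PSAT1, the second, rose from 737 and 757 CPM to 844 and 849 CPM (log2 fold change 0.18, edgeR adjusted p = 2.41e-10). PSPH, the last, was at 57.0 and 55.4 against 49.1 and 52.2 CPM (log2 fold change -0.15, edgeR adjusted p = 0.0343), a call that DESeq2 did not make (adjusted p = 0.284) and that was lost with any 1 library left out. With the median of the nearest tested genes subtracted, PSAT1 turned to -0.08, PHGDH was at -0.27 and PSPH at -0.02. Of 40 neighbours each, 24 were at least as high as PSAT1, 18 at least as low as PSPH and 9 at least as low as PHGDH. No spread was computed for the subtracted values. Downstream, the mitochondrial serine enzyme SHMT2 fell slightly, by 0.13 on the log2 scale (edgeR adjusted p = 9.93e-06), and lost its call without RUNX3 KO replicate 2 (adjusted p = 0.0627). With its neighbours' median subtracted, SHMT2 was at -0.02. MTHFD2, the mitochondrial folate enzyme next in line, differed by -0.03 (SE 0.0255, edgeR adjusted p = 0.433). PSAT1 was the most abundant of the 6 per kilobase of exon, at 339 CPM per kb in control cells, and PSPH the least at 20.4.

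Aminoacyl-tRNA synthetases load amino acids onto their tRNAs, and the 11 cytosolic ones among the members split, with 6 lower, 3 higher and 2 not called (median -0.10). IARS, for isoleucine, had 899 and 895 CPM in control and 1138 and 1136 CPM in RUNX3 KO libraries, a log2 fold change of 0.34 (SE 0.0223, edgeR adjusted p = 1.20e-24). TARS, for threonine, rose from 419 and 419 CPM to 513 and 517 CPM, a log2 fold change of 0.30 (SE 0.0264, edgeR adjusted p = 2.68e-17). For both genes the spread within a group was far below the difference, but the genes around them were higher as well. With the median of those neighbours subtracted, IARS was at 0.0014 and TARS turned to -0.05. YARS, for tyrosine, was higher by 0.10 (edgeR adjusted p = 0.00474), which DESeq2 did not call (adjusted p = 0.0909) and which was lost without control replicate 1 or either RUNX3 KO library.

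WARS and AARS fell most in this group before any allowance for position. WARS, for tryptophan, went from 375 and 385 CPM to 315 and 294 CPM (log2 fold change -0.32, edgeR adjusted p = 3.10e-16), and stood at -0.11 with its neighbours' median subtracted. AARS, for alanine, went from 375 and 379 CPM to 305 and 312 CPM (log2 fold change -0.29, edgeR adjusted p = 6.67e-15), and stood at -0.42 on that scale. The glycine enzyme GARS fell by 0.23, the methionine enzyme MARS by 0.19, the cysteine enzyme CARS by 0.18 and the serine enzyme SARS by 0.10 on the log2 scale. All 6 lay below the controls in both RUNX3 KO libraries. DESeq2 did not call SARS (adjusted p = 0.0628), nor did edgeR without either RUNX3 KO library, and CARS lost its call without RUNX3 KO replicate 1 (adjusted p = 0.0573). NARS, for asparagine, and the bifunctional EPRS, for glutamate and proline, differed by 0.03 and 0.02 and were not called. With their neighbours' medians subtracted, MARS was at -0.09 and SARS at -0.18.

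All 5 amino acid transporters were called, 3 lower and 2 higher, with a median of -0.13. SLC1A4, a carrier of alanine, serine and cysteine, changed most of all members. It lies on chromosome 2 from 65215611 to 65250999 on GRCh37 and had 579 and 546 counts in control and 290 and 250 in RUNX3 KO libraries, or 49.0 and 46.3 against 24.6 and 20.8 CPM. Its RNA fell by 52.4% (log2 fold change -1.07, SE 0.0784, edgeR adjusted p = 9.34e-22). With 1 library left out, the log2 fold change ranged from -1.19 to -0.96. Its close relative SLC1A5, a glutamine carrier, fell less, from 371 and 373 CPM to 311 and 317 CPM (log2 fold change -0.24, edgeR adjusted p = 7.65e-12).

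SLC7A5 and SLC3A2, which encode the 2 chains of the large neutral amino acid exchanger LAT1, both rose. SLC7A5, the transporting chain, went from 1004 and 973 CPM to 1124 and 1126 CPM (log2 fold change 0.19, edgeR adjusted p = 1.27e-11). SLC3A2, the glycoprotein chain, went from 406 and 405 CPM to 459 and 445 CPM (log2 fold change 0.16, edgeR adjusted p = 7.59e-07). SLC7A11, which pairs with the same SLC3A2 chain to exchange cystine for glutamate, was instead lower by 0.13 on the log2 scale (edgeR adjusted p = 0.00227), a call that DESeq2 did not make (adjusted p = 0.0843) and that was lost without either RUNX3 KO library. With their neighbours' medians subtracted, SLC7A5 was at 0.11 and SLC7A11 at -0.20.

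**Figure D2:**
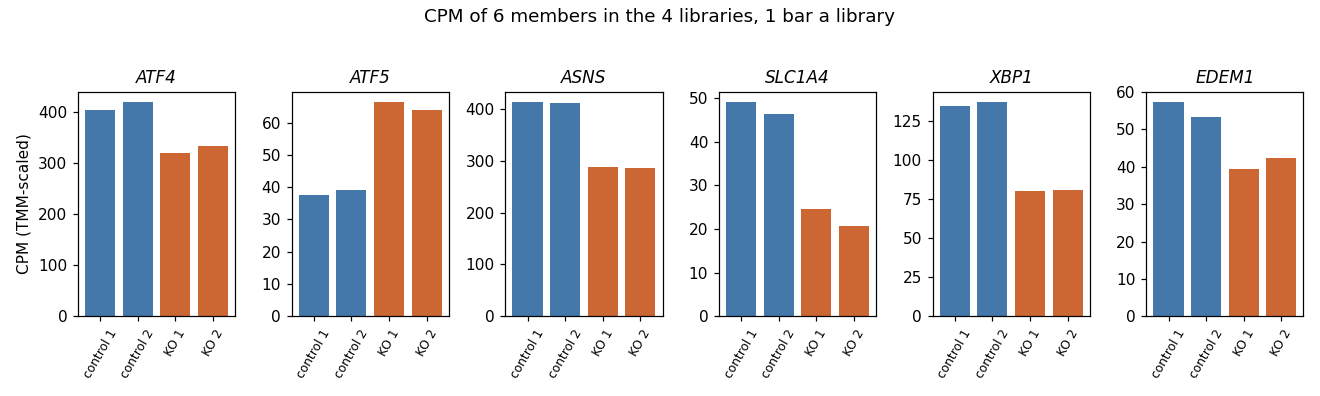
CPM of ATF4, ATF5, ASNS, SLC1A4, XBP1 and EDEM1 in each of the 4 libraries, 1 bar a library, on axes that start at 0 and differ between genes. The 2 RUNX3 KO bars are above both control bars for ATF5 (66.3 and 63.9 against 37.5 and 39.1 CPM) and below them for the other 5 genes.

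Among the 4 ER sensors and XBP1, 2 were lower and 2 were not called. XBP1, the factor made active by IRE1 splicing, lies on chromosome 22 from 29190543 to 29196585 on GRCh37. It had 1589 and 1612 counts in control and 948 and 971 in RUNX3 KO libraries, or 135 and 137 against 80.3 and 80.8 CPM. The 2 libraries of each group were nearly equal, and XBP1 RNA fell by 40.6% in RUNX3 KO cells (log2 fold change -0.75, SE 0.0444, edgeR adjusted p = 2.53e-27). On chromosome 22, 39 of its 40 neighbours were lower as well, and with their median subtracted XBP1 was at -0.23. These counts add up spliced and unspliced XBP1, so they carry no measure of IRE1 activity.

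The 3 sensors changed little. EIF2AK3, which encodes PERK, was at 389 and 396 against 325 and 361 counts (log2 fold change -0.21, edgeR adjusted p = 0.0231), a call that was lost by DESeq2 (adjusted p = 0.246) and with any 1 library left out. ERN1, which encodes IRE1, had 133 and 127 counts against 111 and 124 (log2 fold change -0.16, SE 0.132, edgeR adjusted p = 0.332). With 1 library left out ERN1 ranged from -0.23 to -0.09. ATF6 had 837 and 849 against 841 and 862 counts, with a log2 fold change of 0.0012 (SE 0.0526, edgeR adjusted p = 0.987). All 3 were sparse per kilobase of exon in control cells, between 0.575 CPM per kb for ERN1 and 5.01 for ATF6, where XBP1 had 44.8.

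Of the 10 chaperones, co-chaperones and degradation factors, 6 were lower, none was higher and 4 were not called, with a median of -0.13. The 3 chaperones with the highest CPM, a level not corrected for length, were close to level. HSPA5, which encodes BiP, the chaperone that holds the ER sensors inactive, was at 1051 and 1055 CPM in control and 1018 and 1017 CPM in RUNX3 KO libraries. Its log2 fold change of -0.05 (SE 0.0222) missed the threshold at an edgeR adjusted p of 0.0575. It passed with library size alone as the scaling (edgeR adjusted p = 0.00666) and with at least 10 counts required in every library (edgeR adjusted p = 0.0319). HSP90B1, the ER form of HSP90, differed by 0.01 (SE 0.0216, edgeR adjusted p = 0.659). CALR, the glycoprotein chaperone calreticulin and the most abundant member per kilobase of exon at 464 CPM per kb, was lower by 0.07 on the log2 scale (edgeR adjusted p = 0.00582), a call lost without either RUNX3 KO library (adjusted p = 0.159 and 0.120), and turned to 0.12 with its neighbours' median subtracted.

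The larger falls were in less abundant genes. SDF2L1, a co-chaperone of BiP, had 482 and 418 counts in control and 326 and 302 in RUNX3 KO libraries (log2 fold change -0.53, SE 0.0801, edgeR adjusted p = 1.95e-08), and was at -0.01 with its neighbours' median subtracted. HERPUD1, a membrane protein of ER-associated degradation, had 79.4 and 86.0 against 58.5 and 62.1 CPM (log2 fold change -0.46, SE 0.0540, edgeR adjusted p = 7.71e-12). EDEM1, which directs misfolded glycoproteins to degradation, had 57.2 and 53.3 against 39.4 and 42.3 CPM (log2 fold change -0.44, SE 0.0651, edgeR adjusted p = 1.61e-08). In all 3 both RUNX3 KO libraries lay below both controls, though SDF2L1 lost its call without either RUNX3 KO library (adjusted p = 0.0512 and 0.0864). The disulfide isomerase PDIA4 and the BiP exchange factor HYOU1 each fell by 0.13 (edgeR adjusted p = 5.09e-06 and 2.39e-06). With their neighbours' medians subtracted, PDIA4 was at -0.11 and HYOU1 at -0.02. The J-domain co-chaperones DNAJB9 and DNAJC3 differed by -0.27 and -0.13 and were not called (edgeR adjusted p = 0.0935 and 0.0703). With 1 library left out DNAJB9 ranged from -0.36 to -0.18. DNAJC3 was called lower with library size alone as the scaling (edgeR adjusted p = 0.0361) and without control replicate 1 (-0.21, edgeR adjusted p = 0.0137), and differed by -0.05 without control replicate 2.

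Related genes outside the 44 were counted in 5 further lists. Of 26 other ATF4-type targets that were tested, 14 were lower (53.8%) and 6 higher (23.1%), with a median of -0.12, where 24.4% of all tested genes were lower and 24.5% higher. The largest called changes there were in VLDLR, a lipoprotein receptor (390 and 377 against 941 and 1041 counts, log2 fold change 1.36), FGF21, a stress hormone (12 and 15 against 31 and 33 counts, 1.22), and SLC6A9, a glycine transporter (646 and 674 against 354 and 396 counts, -0.83). All 3 were called. VLDLR lies on chromosome 9, where all 25 of its neighbouring tested genes were higher (median 0.93 on the log2 scale), and it stood 0.42 above that median.

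Synthetases outside the members were counted in the same way, and their difference from the members was not tested. Of the 9 other cytosolic synthetases, 4 were higher (44.4%) and 2 lower (22.2%, near the share of all genes), with a median of 0.05, the largest called changes being in QARS at -0.18, HARS at 0.18 and KARS at 0.14 (0.07 and 0.06 for HARS and KARS with their neighbours' medians subtracted). Of the 17 mitochondrial synthetases, 9 were higher (52.9%) and 2 lower (11.8%), with a median of 0.17, led by LARS2 at 0.53, EARS2 at 0.50 and YARS2 at 0.39. LARS2, the mitochondrial leucine enzyme, had 651 and 622 counts in control and 948 and 908 in RUNX3 KO libraries.

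Upstream, the eIF2 kinases other than PERK, the eIF2 and eIF2B subunits and the eIF2 phosphatase made a list of 14 genes with the kinase partner GCN1L1, of which 6 were higher (42.9%) and 2 lower (14.3%), with a median of 0.04. EIF2AK4, which encodes the amino acid sensor GCN2, was higher by 0.30 on the log2 scale, EIF2B4 was higher by 0.29 and EIF2B5 was lower by 0.23. With their neighbours' medians subtracted, EIF2AK4, on chromosome 15, was at 0.10 and EIF2B4 at 0.18. Among 31 other ER folding and degradation genes tested, 7 were higher (22.6%, near the share of all genes) and 11 lower (35.5%), with a median of -0.03. The largest called changes there were in the oxidase ERO1LB (-0.83), the ER-resident protein CRELD2 (-0.78) and the COPII coat protein SEC24D (-0.47). CRELD2 lies on chromosome 22 among genes with a median of -0.53, 37 of 40 of them lower, and differed from that median by -0.25.

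Several members lie where most genes around them had shifted. On chromosome 22 285 of 293 tested genes had a log2 fold change below 0 (median -0.53), and ATF4, XBP1 and SDF2L1 lie there. Chromosome 14, with WARS, had a median of -0.27, and chromosome 15, with CHAC1, a median of 0.29. For each member the median of the nearest tested genes, up to 20 on each side, was taken as the level of its surroundings. That median was -0.54 around ATF4 and -0.52 around both XBP1 and SDF2L1. IARS, at 0.34 among genes with a median of 0.34, and TARS, at 0.30 among genes with a median of 0.35, did not stand out from theirs.

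Other members differed from the genes around them. The neighbours of SLC1A4 had a median of 0.02, those of ASNS -0.01, those of ATF5 0.01 and those of EDEM1 0.05. None of the 40 neighbours of SLC1A4 or ATF5 differed as far in the same direction as the gene itself. For ASNS 4 of 40 did, for EDEM1 3 of 29, for CHAC1 5 of 40 and for AARS 0 of 40. AARS, lower by 0.29 on the log2 scale, lay among genes with a median of 0.13, and CHAC1, at -0.22, among genes with a median of 0.24. After the surrounding median was subtracted, the median was -0.07 for the ATF4-type genes (19 below 0, 11 above) and -0.11 for the ER genes (13 below, 1 above). Of the ER genes below 0, ATF6 (-0.0014), SDF2L1 (-0.0083), HYOU1 (-0.02), HSP90B1 (-0.03) and HSPA5 (-0.03) lay nearest to it. The same counts over all tested genes were not made. ATF4, PSAT1, TARS and CALR, all called, changed sign by the subtraction. Without the members on chromosomes 14, 15 and 22, 14 of 27 ATF4-type genes were lower and 8 higher. Of 12 ER genes 6 were lower with none higher. No higher member lay on these chromosomes, so the number higher could not change. IARS, TARS and PSAT1 were kept, although the medians around them were 0.34, 0.35 and 0.26. The shares of all tested genes without these chromosomes were not computed. The part of these regional shifts in the members' changes was not tested.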

How the data were processed

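The authors deposited, for each library, a table of raw counts of reads per gene symbol on hg19, without normalization. The paper's methods name STAR, featureCounts and GENCODE, whereas the submitters' processing notes name HISAT2 2.1.0 and HTSeq, and the tables end in 5 rows for reads without a gene, the form htseq-count writes. Those rows held 25.9% to 28.1% of the counts and were left out. The strand setting is not given in the sources used here.

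These counts were tested with edgeR 4.0.16 (R 4.3.3), using filterByExpr at its defaults (12967 genes kept), TMM scaling, glmQLFit and glmQLFTest without a replicate block, and p-values adjusted by Benjamini-Hochberg across every tested gene. CPM are counts scaled to TMM library sizes. The SE is the absolute log2 fold change over the root of the F statistic. Adjusted p-values credited to DESeq2 come from DESeq2 1.42.0, and all others, leave-one-out fits included, from edgeR. The steps were tested on simulated data. Counts this deep (11731401 to 12110876 per library) leave genes near 100 counts with an SE of about 0.13 (ERN1: 0.132).

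Positions and exon lengths came from the GENCODE annotation on GRCh37, which placed all 44 members and 93.8% of tested genes. Exon length is the union over transcripts. Promoters came from RefSeq (GRCh38.p14). Members and lists were chosen with earlier results of these data known. All members are named, with the 3 called genes of largest change from each further list. Alternatives were other scalings, filters and fits, DESeq2, a replicate block, fold limits, each library left out and the subtraction of neighbouring genes.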

Additional observations from a re-analysis of the deposited data

How the results depend on the processing

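The 8 higher and 16 lower ATF4-type genes and the 8 lower ER genes kept their counts within 1.5 times under DESeq2's size factors, library size alone, both other filters, the other quasi-likelihood setting and the DESeq2 test (7 and 11, and 7). The replicate block gave 8, 16 and 8, with 6286 of all genes called against 6341. Across 10869 genes the replicate differences of the groups were uncorrelated (r = -0.0037). Replicates differed little beyond counting noise (chi-square 1.22 and 1.18 per degree of freedom). The correlation therefore cannot tell whether replicate numbers pair the libraries. A fold change of at least 1.5 left 1 higher and 1 lower ATF4-type gene and 1 lower ER gene, and a fold change of at least 2 with unadjusted p left 0, 1 and 0. With 1 library left out, lower calls ranged from 10 to 14 (ATF4-type) and 5 to 8 (ER), higher ATF4-type calls from 6 to 8, and calls over all genes from 2663 to 5551, lowest without RUNX3 KO replicate 2 (2663) and replicate 1 (3014). DESeq2 called 3692 genes in all. Of the 32 called members, 20 kept their call in every refit, 5 lost it only with a library left out and 7 in another setting. Calls were gained by CHAC1, HSPA5 and DNAJC3 by library size alone, by HSPA5 with at least 10 counts in every library and by DNAJC3 without control replicate 1. After subtraction of the neighbouring genes' median, ER genes higher numbered 1 (CALR), and values reversed for ATF4 (0.21), PSAT1 (-0.0834), MTHFD2 (0.0291), EPRS (-0.0492), TARS (-0.0508), ATF6 (-0.0014), HSP90B1 (-0.0285) and CALR (0.12). By library size alone, which moved the median of all genes by -0.02, EPRS (-0.0047), ATF6 (-0.019) and HSP90B1 (-0.0072) reversed, as did ATF6 with at least 10 counts in every library (-0.0053). With 1 library left out, DDIT3 ranged from -0.0387 to 0.172, EPRS from -0.0101 to 0.0393 and ATF6 from -0.0089 to 0.0097, so the signs of these genes, none called, are not fixed. The exclusion of chromosomes 14, 15 and 22 was chosen after seeing the data and left 8 higher and 14 lower ATF4-type and 6 lower ER genes. No higher member lay on them, so the 8 higher could not change. The cause of these changes was not tested.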
